A study of Mus musculus with 6 samples.

Results

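The genes described here are the simple epithelial keratins Krt7, Krt8, Krt18 and Krt19, measured in cells sorted by a GFP reporter of the node and notochord gene Noto. They were chosen as the probe sets whose platform annotation gives exactly 1 gene symbol, that symbol being 1 of these 4. The rule found 6 probe sets of 45101 and 4 genes of 18193 that have such a probe set. Krt8 had 3 probe sets and the other genes had 1 each. All 6 probe sets lay at or above the 40th percentile of intensity on all 6 arrays, so every member entered the test over 12628 genes.

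The cells came from embryos heterozygous for Noto-GFP on a mixed 129S3;ICR background, of mixed sex, at embryonic day 8.5 with a median of 6 somites. The tissue posterior to the boundary between somites SI and SII was taken and brought into suspension with 1% trypsin. The 3 pools held 23, 39 and 52 embryos and gave about 2600, 4300 and 6600 GFP-positive cells. Each of the 3 pools gave 1 GFP-positive and 1 GFP-negative array, and GFP-negative cells came from the same dissected tissue as the GFP-positive cells of their pool. A pool mixes many embryos, so the spread over 3 arrays is that between pools. The comparison asks which genes distinguish cells with reporter signal from the other cells around them. Noto itself was not analysed here.

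Keratins form the intermediate filaments of epithelial cells. A filament is built from pairs of an acidic (type I) and a basic (type II) keratin, so a cell needs both kinds. Krt8 (type II) and Krt18 (type I) are the partners made in the earliest epithelia of the embryo and in simple, single-layered epithelia of the adult. Krt7 (type II) and Krt19 (type I), a short keratin that lacks the usual tail domain, are added in particular simple epithelia such as ducts. Krt8, Krt18 and Krt19 are also known as keratins of notochord cells and of the notochord-derived cells of the intervertebral disc.

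The sort and the arrays gave the following frame for the keratins. Of 13 listed node and notochord markers, all measured, 10 were higher in GFP-positive cells and 0 lower in limma at an adjusted p under 0.05. The count was 2 without pool 2, and 7 without pool 3, GFP-positive array 2 or GFP-negative array 2. Their summed intensity was between 9390.1 and 13999.9 on GFP-positive and between 539 and 927 on GFP-negative arrays. No tested marker was listed at 0. Dand5, which was called higher, and Foxj1, which was not, lay below the filter's intensity cutoff on every GFP-negative array. These 2 markers therefore passed the filter through the GFP-positive arrays alone. Without the filter, 10 of the 13 markers were also higher. Over all tested genes, 4.66% passed in either direction, 2.95% passed as higher and 1.71% as lower. With the pool as a block in the fit, which the shared tissue of each pool allows, 7.76% passed as higher and 5.99% as lower. Of the 12628 genes, 2511 passed as higher and 2213 as lower without pool 1. Without pool 2 the counts were 5 and 0, and without pool 3 they were 52 and 7. Both arrays of pool 1 had high 3′ over 5′ signal ratios of the Gapdh and beta-actin controls, a sign of RNA quality. These ratios lay between 14.0 and 22.7 in pool 1 and between 1.60 and 2.75 in the other pools.

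All 4 simple keratins had higher intensities on every GFP-positive array than on any GFP-negative array. Such separation in this direction was seen for 15.6% of all tested genes. Krt7, Krt8 and Krt19 rose in limma, and Krt18 did not pass without the pool as a block and rose with it. With the block, all 4 of 4 passed. The median log2 fold change of the 4 keratins was 1.37, against 0.01 over all tested genes. Fold changes are on the scale of log2(intensity + 32), which understates the change of dim genes. In RNA pooled from many cells, more cells with a transcript and more transcript per cell cannot be told apart.

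**Figure D1:**
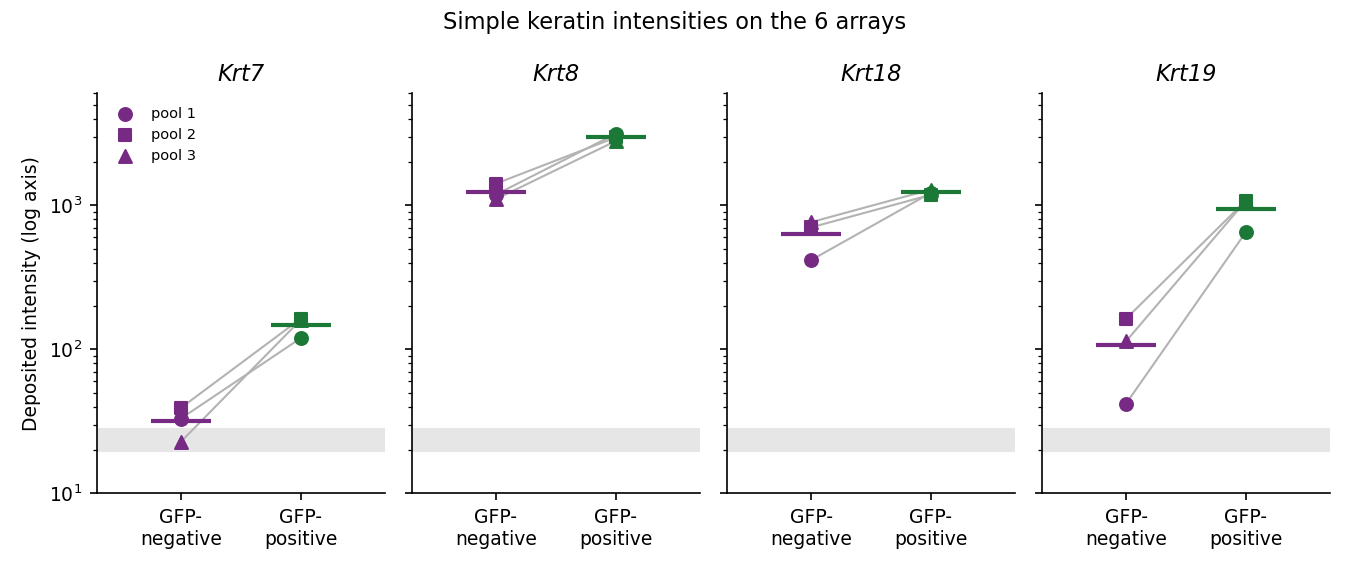
Deposited intensity (log axis) of Krt7, Krt8, Krt18 and Krt19 on each GFP-negative and GFP-positive array. Symbols mark the 3 pools, grey lines join arrays of 1 pool, bars are group means and the grey band spans the medians of the 6 arrays (19.8 to 27.98). Every line rises, Krt19 has the steepest line within each pool, and Krt7 on GFP-negative arrays lies near the band.

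Among the type II keratins, Krt8 was bright in both populations. Its brightest probe set read 3149.9, 2971 and 2805 on the GFP-positive arrays of pools 1, 2 and 3, and 1191, 1418 and 1106 on the GFP-negative arrays. The GFP-positive values lay close together and well above the GFP-negative ones, which were themselves far above the array medians of 19.8 to 27.98. The means were 2975 ± 173 (SD, n = 3) with reporter signal and 1238 ± 161 (SD, n = 3) without. Krt8 rose by 1.25 ± 0.18 (SE) on the log2 scale, with an adjusted p of 0.00973 in limma. Within pools the log2 differences were 1.38, 1.05 and 1.32, all of 1 sign. The call was lost without pool 2 or pool 3 (adjusted p = 0.245 and 0.207) and without GFP-positive array 2 or 3 (adjusted p = 0.0645 and 0.0576), at log2 values between 1.21 and 1.35. Without pool 1 Krt8 passed at 1.18 (adjusted p = 0.000498 in limma).

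The other 2 Krt8 probe sets also rose, by 1.25 ± 0.21 and 1.36 ± 0.20 (SE), with limma's adjusted p over all probe sets of 0.0266 and 0.0167. Of all tested probe sets 1.26% passed as higher, and 4.93% with the pool as a block, under which these probe sets had an adjusted p of 0.00469 and 0.00356. On each array the brightest of the 3 Krt8 probe sets exceeded the dimmest by 1.14-fold to 1.33-fold. These probe sets are not independent readings. They report the same gene, and 2 are of a type whose probes can also bind related sequences. RefSeq lists a Krt8 pseudogene.

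Krt7, the other type II keratin, was close to the array medians in GFP-negative cells. It read 119.5, 163 and 160.2 on GFP-positive arrays and 33.0, 39.2 and 22.8 on GFP-negative arrays. The 3 GFP-positive values stood clear of the others, while the GFP-negative value of pool 3 lay below that array's median of 27.98. Mean intensity was 148 ± 24.4 (SD, n = 3) against 31.6 ± 8.28 (SD, n = 3). Krt7 rose by 1.496 ± 0.20 (SE, adjusted p = 0.00706 in limma), with 1.22, 1.46 and 1.81 within pools 1, 2 and 3. Because the GFP-negative level may be background, the ratio of deposited intensities in each pool (3.62, 4.17 and 7.04) is a rough figure. Krt7 did not pass without pool 2 or pool 3 (adjusted p = 0.203 and 0.130), at 1.52 and 1.34. Without pool 1 it passed at 1.63 (adjusted p = 0.000386 in limma).

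Krt18, the type I partner of Krt8, had the smallest difference of the 4. It read 1223, 1185.5 and 1289 on GFP-positive arrays and 417, 703 and 765 on GFP-negative arrays. GFP-positive values were nearly equal, and the GFP-negative array of pool 1 stood below those of pools 2 and 3. Mean intensity was 1232 ± 52.2 (SD, n = 3) against 628 ± 186 (SD, n = 3). The log2 fold change was 0.98 ± 0.25 (SE, adjusted p = 0.0657 in limma) without the block. With the pool as a block it was 0.98 ± 0.20 (SE, adjusted p = 0.0214).

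The pools were unequal for Krt18. Its log2 difference was 1.48 in pool 1 and 0.73 in each of pools 2 and 3. Without pool 1, whose RNA quality ratios stood apart, the value was 0.73 ± 0.12 (SE, adjusted p = 0.0026 in limma), and without GFP-negative array 1 alone it was 0.72 (adjusted p = 0.0184). Without pool 2 or pool 3 it was 1.11 in both, with an adjusted p of 0.547 and 0.347. The part of RNA quality in this difference was not tested.

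Krt19, the other type I keratin, had the largest change of the group, at rank 17 among the log2 fold changes of 12628 genes. Krt7, Krt8 and Krt18 ranked 126, 215 and 408. Krt19 read 654, 1081 and 1077 on GFP-positive arrays and 41.9, 163 and 114 on GFP-negative arrays. The lowest GFP-positive value was above the highest GFP-negative one, and pool 1 was the lowest pool in both populations. Mean intensity was 938 ± 246 (SD, n = 3) against 106 ± 61.04 (SD, n = 3). Krt19 rose by 2.88 ± 0.37 (SE, adjusted p = 0.0069 in limma). With the pool as a block the error was 0.19 and the adjusted p was 0.000341. Intensities in GFP-positive cells were 15.6, 6.62 and 9.47 times those of GFP-negative cells in pools 1, 2 and 3. The call was lost without pool 2 or pool 3 (adjusted p = 0.102 and 0.0610), at 3.07 and 2.86. Without pool 1 Krt19 passed at 2.72 (adjusted p = 3.37e-05 in limma).

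On the GFP-negative arrays, Krt19 and the secreted notochord signal Shh were both lowest in pool 1. Shh read 47.0, 348 and 418 on the GFP-negative arrays of pools 1, 2 and 3. The forkhead factor Foxa1, also a notochord marker, differed less between these arrays, at 26.1, 28.5 and 30.5. These values and those of Foxa2 (30.6, 27.3 and 25.6) lay near the array medians of 23.2, 23.4 and 27.98 and may be background. Of the other listed node and notochord markers, Foxa2, Nodal, Bicc1, Slit2 and Sox9 were not lowest in pool 1. Bicc1 read 66.3, 50.0 and 41.4, and Slit2 215, 225 and 146. Chrd and Cfc1 were lowest there, and so were Foxj1, Dand5, Nog and Col2a1, which lay below the medians of these arrays. Whether notochord cells without reporter signal bear on the Krt19 level was not tested.

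**Figure D2:**
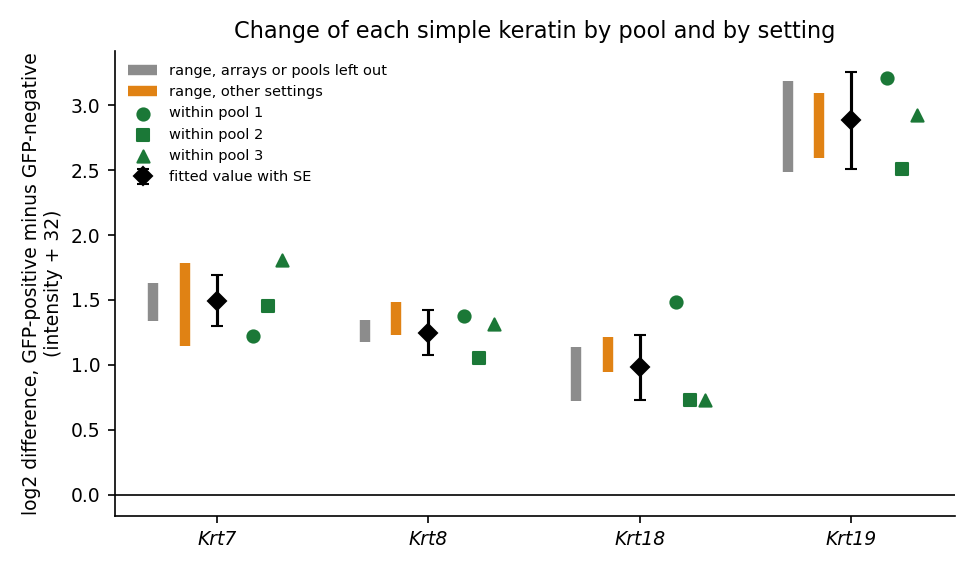
Log2 difference, GFP-positive minus GFP-negative, of each simple keratin. Diamonds with bars are fitted values with their SE, green symbols the differences within pools, grey bars the range when an array or pool was left out, and orange bars the range over other settings. All lie above 0, the pool values and ranges of Krt19 lie between 2.49 and 3.21, and the pool 1 value of Krt18 (1.48) stands above those of pools 2 and 3.

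Whether the members changed by unequal amounts was asked for the 6 pairs, on the difference of their log2 values on each array. Krt19 changed by more than Krt18, its fellow type I keratin, by 1.90 (within-pool differences 1.73, 1.78 and 2.20). It also changed by more than Krt8, by 1.63, and than Krt7, by 1.39, and in all 3 pools for each of these pairs. The exact two-sided permutation test gave p = 0.1 for each of these 3 pairs, the smallest p that 3 against 3 arrays allow, and an adjusted p of 0.2 over the 6 pairs. The partners Krt8 and Krt18 differed in change by 0.27 ± 0.35 (SD over 3 pools), with the sign turned in pool 1 (exact permutation p = 0.5). Krt7 exceeded Krt8 by 0.25 ± 0.35 and Krt18 by 0.52 ± 0.70 (SD over 3 pools), each in 2 of 3 pools (exact permutation p = 0.4 and 0.2). The Krt7 to Krt8 difference moved with the offset, at 0.52 with 16 and -0.086 with 64 (exact permutation p = 0.1 and 0.9).

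Krt8 and Krt18 are neighbours in the mouse genome, with 0 protein-coding genes between them in RefSeq, and are read in opposite directions away from each other. Krt7 lies in the same type II cluster, 23 protein-coding genes from Krt8, and Krt19 lies in the type I cluster on chromosome 11. Of the tested genes within 3 places of a member, members aside, none passed in limma, with or without the block (Atg101, Krt88, Krt81, Krt79, Krt78, Eif4b, Spryd3 and Krt36). Their log2 fold changes lay between -0.74 (Krt81) and 0.32 (Atg101). Eif4b, a translation initiation factor next to Krt18, had -0.43 ± 0.18 (SE, adjusted p = 0.211 in limma). Krt78 and Krt79, on the far side of Krt8, had -0.64 ± 0.37 and -0.33 ± 0.17 (SE, adjusted p = 0.331 and 0.284).

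The stretch around the start of each of the 3 genes on chromosome 15 is shown because Krt8 and Krt18 are neighbours and Krt7 lies in the same cluster. Each runs from 250 bases before to 20 bases after the RefSeq start (GRCm38.p6), in the direction of the gene, in lower case. Capitals mark matches on either strand to the TATA box TATAAA, to the GC box of SP and KLF factors, GGGCGG, and to the AP-2 letters GCCNNNGGC.

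Krt7 (chr15:101412153-101412422, plus strand): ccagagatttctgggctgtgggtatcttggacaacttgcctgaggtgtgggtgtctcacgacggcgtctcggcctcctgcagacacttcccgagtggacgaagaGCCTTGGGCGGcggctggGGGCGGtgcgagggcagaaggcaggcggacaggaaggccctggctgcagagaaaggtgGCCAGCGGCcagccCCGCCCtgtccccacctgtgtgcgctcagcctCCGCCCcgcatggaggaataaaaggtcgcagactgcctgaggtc

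Krt8 (chr15:102004323-102004592, minus strand): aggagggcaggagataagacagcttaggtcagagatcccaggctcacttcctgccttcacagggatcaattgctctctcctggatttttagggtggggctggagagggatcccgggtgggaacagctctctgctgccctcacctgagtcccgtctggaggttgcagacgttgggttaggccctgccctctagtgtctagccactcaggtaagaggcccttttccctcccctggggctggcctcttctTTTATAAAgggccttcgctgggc

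Krt18 (chr15:102027966-102028235, plus strand): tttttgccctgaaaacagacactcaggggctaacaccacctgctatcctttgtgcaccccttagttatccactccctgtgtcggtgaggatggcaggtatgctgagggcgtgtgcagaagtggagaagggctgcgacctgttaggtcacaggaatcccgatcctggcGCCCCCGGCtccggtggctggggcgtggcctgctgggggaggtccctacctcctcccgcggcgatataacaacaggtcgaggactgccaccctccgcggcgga

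The 3 windows share few of these letters. Krt7 held 4 matches to GGGCGG and 2 to GCCNNNGGC, 1 of each overlapping, while Krt8 and Krt18 held 0 to GGGCGG. Krt18 held 1 match to GCCNNNGGC and Krt8 held 0. Over 32851 RefSeq windows of the same 270 bases, 34.1% held GGGCGG and 14.8% GCCNNNGGC. TATAAA was found only in Krt8 among the 3, where a match spans the annotated start, and in 12.9% of all windows. An E-box, CANNTG, was found in all 3 and in 68.9% of all windows. GGAAGT, read by ETS factors, was in Krt7 and Krt8 and in 21.7% of windows. No window of the 3 held the forkhead letters TGTTTAC (3.38% of all windows), the T-box letters GGTGTGA (3.61%), the AP-1 letters TGANTCA (7.23%), the GRHL letters AACCNGTT (1.92%) or TAATTA (5.01%). Both strands were searched for each motif. GC content was 65.9%, 58.1% and 61.9% for Krt7, Krt8 and Krt18, against a median of 52.6%. These windows leave out introns and distant elements.

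Other keratins gave no calls. Of 44 other keratin genes with a named probe set, 14 passed the filter. In limma 0 of 14 passed, with or without the pool as a block, and an unadjusted p under 0.05 was reached by 0 in the higher and 1 in the lower direction. Over all 12628 tested genes, 1599 were higher and 1263 lower at that unadjusted p. The median log2 fold change of the 14 was -0.20. The 30 that were not tested had group means of at most 23.4, within the range of the array medians or below. Among them were Krt14 and Krt15, keratins of stratified epithelium.

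The other keratins with the largest differences were Krt81, a hair keratin, and Krt78. Krt81 had -0.74 ± 0.25 (SE, adjusted p = 0.132 in limma), with 29.2, 31.96 and 29.1 on GFP-positive and 39.6, 76.5 and 111 on GFP-negative arrays. Krt78 read 36.8 and 85.6 on GFP-negative arrays 2 and 3 and at most 17.3 on the other 4. Without pool 1 both passed as lower (adjusted p = 0.00428 and 0.00922), and Krt10, a keratin of differentiating epidermis, as higher (adjusted p = 0.012). In that fit 2511 of all 12628 tested genes passed as higher and 2213 as lower. Krt5, the basal-layer keratin of stratified epithelium, had 0.24 ± 0.15 (SE) and intensities of 21.3 to 43.0 on all 6 arrays.

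**Figure D3:**
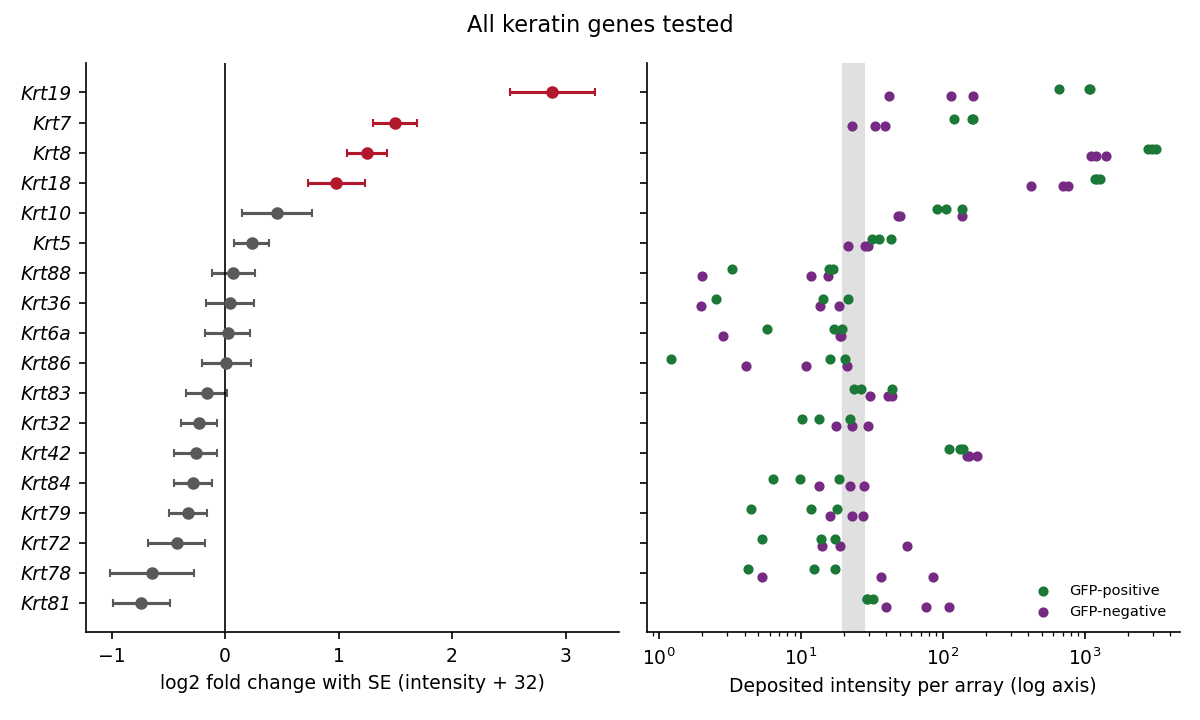
All 18 keratin genes tested. Left, log2 fold change with its SE, simple keratins in red. Right, deposited intensity on each array (log axis), GFP-positive in green and GFP-negative in purple, with a grey band over the array medians (19.8 to 27.98). The 4 simple keratins have the largest positive changes, and most other keratins lie in or near the band.

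Of the intermediate filament genes outside the keratin family, Synm rose. Of 16 listed, 13 were tested, 1 was higher and 0 lower, and their median log2 fold change was -0.19. Synm, which encodes synemin, a filament protein that joins desmin and vimentin filaments, rose by 1.56 ± 0.23 (SE, adjusted p = 0.0109 in limma). It read 183, 165 and 147 on GFP-positive and 57.3, 22.5 and 28.04 on GFP-negative arrays, and its other probe set had 0.62. The call was lost without pool 2 or pool 3 (adjusted p = 0.296 and 0.118), and without GFP-positive array 2 or GFP-negative array 2 the list held 0 calls. Vim, the filament of mesenchyme, was bright in both populations, at 2949, 1309.9 and 1385 against 1410.3, 895 and 844. Its groups overlap, since the GFP-negative array of pool 1 exceeded GFP-positive arrays 2 and 3. Vim had 0.76 ± 0.34 (SE, adjusted p = 0.235 in limma) and a limma adjusted p of 0.0275 once the pool was a block, where it was called higher. The nuclear lamin Lmna had -0.34 ± 0.17 (SE, adjusted p = 0.285).

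Genes whose proteins anchor or bind keratin filaments did not pass. Of 15 listed, 13 were tested and 0 passed in limma, the median was 0.16, and an unadjusted p under 0.05 was reached by 2 as higher and 0 as lower. Over all 12628 tested genes, 1599 were higher and 1263 lower at that unadjusted p. Dsp, desmoplakin, which ties keratin filaments to desmosomes, had 0.78 ± 0.26 (SE, adjusted p = 0.127). It read 2669, 1684 and 1934 on GFP-positive and 1361, 1407 and 869 on GFP-negative arrays, with no overlap, and in the blocked fit it was called higher (adjusted p = 0.042 in limma). The plakophilin Pkp3 had -0.52 ± 0.26 (SE, adjusted p = 0.283). Without pool 1, 1 gene of this list was higher and 2 were lower (Dsp, and Pkp3 and the plakin Ppl). Over all 12628 tested genes, 2511 were higher and 2213 lower in that fit.

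Among genes of simple epithelium outside the keratin family, those that passed were all higher. Of 20 listed, 18 were tested, of which 6 rose, 0 fell and 12 did not pass, and the median was 0.69. With the pool as a block, 10 were higher and 1, the polarity gene Crb3, lower. Crb3 has another probe set, which had 0.59. Cdh1, the epithelial cadherin, read 720, 540 and 520 on GFP-positive against 118, 127 and 130 on GFP-negative arrays. It rose by 1.98 ± 0.21 (SE, adjusted p = 0.0028 in limma). Spint1 and Spint2, membrane inhibitors of serine proteases, rose by 1.09 ± 0.18 and 1.51 ± 0.25 (SE, adjusted p = 0.0172 and 0.0181). Without pool 2 the list held 0 higher and 0 lower genes. It held 1 higher gene without pool 3 and without array 2 or 3 of either population, 7 higher and 2 lower without GFP-negative array 1, and 11 higher and 2 lower without pool 1. Cdh1 lost its call without pool 2 (adjusted p = 0.139).

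Factors known to act on keratin genes moved in both directions. Of 12 tested, 1 rose, 2 fell and 9 did not pass. Ets2, an ETS factor known to act on Krt18, rose by 1.26 ± 0.20 (SE, adjusted p = 0.0161 in limma), from a mean of 1113 to 2707. Tfap2a, which encodes AP-2 alpha, fell by 1.39 (adjusted p = 0.0059), and Trp63, the p63 factor of stratified epithelium, fell by 1.01 (adjusted p = 0.0308). Their means in GFP-positive cells, 18.0 and 15.1, lay below the array medians. Without pool 1, where 2511 of all 12628 genes passed as higher and 2213 as lower, the counts were 3 higher and 4 lower. They were 0 and 0 without pool 2, and 0 and 1 without pool 3. Without a single array they ran from 0 to 2 higher and from 1 to 4 lower, with 0 higher without array 2 or 3 of either population and 2 and 4 without GFP-negative array 1. Ets2 lost its call without pool 2 or pool 3 (adjusted p = 0.296 and 0.264), and so did Trp63 (adjusted p = 0.517 and 0.0995), while Tfap2a lost it without pool 2 (adjusted p = 0.237). The grainyhead factors Grhl1, Grhl2 and Grhl3, regulators of epithelial genes, had 0.08, -0.23 and 0.02 and group means of 43.1 or less.

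**Figure D4:**
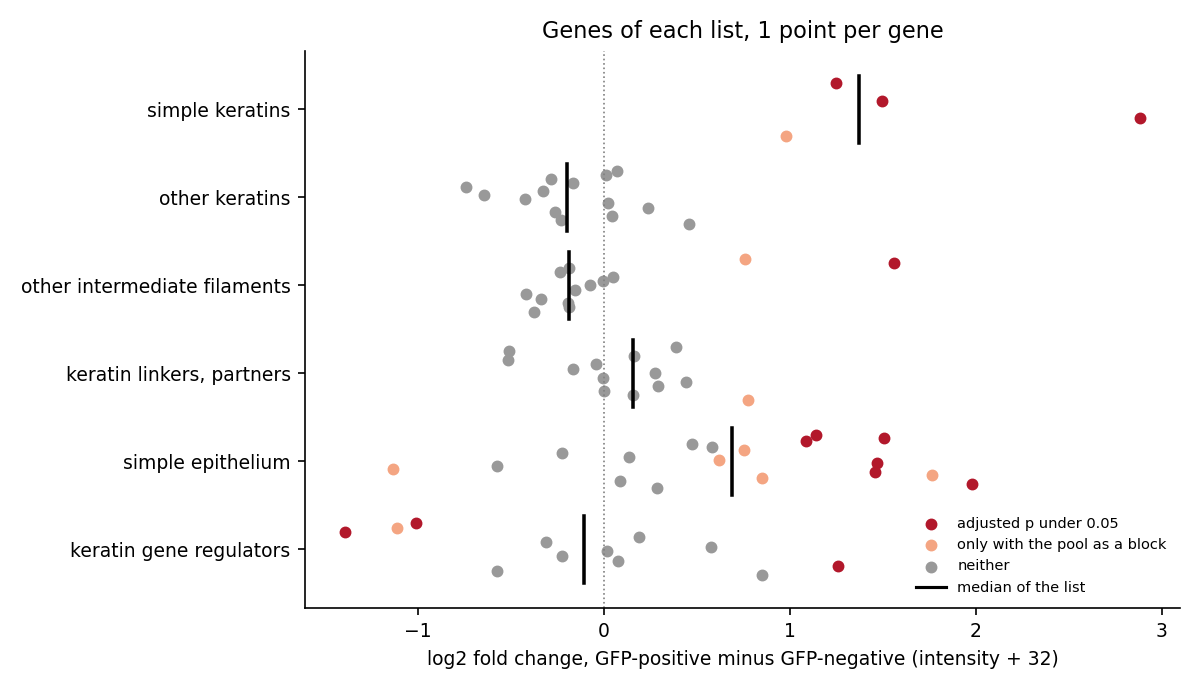
Log2 fold change of every tested gene of 6 lists, 1 point per gene. Red points passed in limma, light points passed only with the pool as a block, grey points passed in neither, and black bars are list medians. The simple keratins lie at 0.98 to 2.88, other keratins center below 0, and simple epithelium has most of its points above 0.

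Simple keratins are also made by gut endoderm, surface ectoderm and mesothelium, so markers of these were read beside them. Of 11 tested endoderm markers, Foxa3 and Epcam rose (0.97 ± 0.19 and 1.47 ± 0.31, SE, adjusted p = 0.0284 and 0.0399 in limma) and Hhex fell by 1.47. The other Epcam probe set had -0.73. With the pool as a block, Cldn6, a claudin of early epithelia, and Afp, a serum protein of visceral endoderm and liver, were also higher (1.77 and 1.37, adjusted p = 0.0017 and 0.0107), and 1 other Afp probe set had -0.27. The endoderm list held 0 higher genes without the filter, pool 2, pool 3 or array 2 or 3 of either population, and 6 without pool 1. The summed intensity of this list was 1939 to 4629 on GFP-positive and 1573 to 1847 on GFP-negative arrays, with no tested marker at 0. Cdx2 alone gave means of 937 and 542. Ttr read 80.1, 1082 and 358 on GFP-positive and 35.1, 166 and 467 on GFP-negative arrays. Afp and Apoa1 were, like Ttr, highest on GFP-positive array 2. Of 9 tested surface ectoderm markers, 0 rose and 4 fell (Tfap2a, Trp63, Dlx5 and Gata3), and sums were 456 to 581 against 574 to 729.8. Dlx5 and Gata3 lay below the 40th percentile on every GFP-positive array, so they passed the filter through the GFP-negative arrays alone. Their GFP-negative means were 32.4 and 32.2, and without the filter 2 markers of the list fell. With the block Tfap2c was also lower and Perp, a desmosome protein, higher. The count that fell was 0 without pool 2, 1 without pool 3, GFP-positive array 2 or 3 or GFP-negative array 2, 2 without GFP-positive array 1, and 5 without pool 1. Of 4 tested mesothelium markers, 1 rose (Aldh1a2, by 1.81), which is also made in somites, and the list median was -0.04. Upk1b and Lrrn4 had -0.57 and -0.63, and with the block Lrrn4 was lower. Sums were 2059 to 3548 against 569 to 1132, of which Aldh1a2 alone gave means of 2865 and 806. The Aldh1a2 call was lost without pool 2, pool 3 or array 2 or 3 of either population. Wt1, Upk3b, Msln and Muc16 did not pass the filter.

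Markers of lateral mesoderm and endothelium were lower in the same cells. Of 9 lateral mesoderm markers, 0 rose and 6 fell, and sums were 406 to 697 against 2387 to 5846. Tbx20, Prrx1 and Gata6 had the smallest adjusted p in limma (0.00423, 0.00542 and 0.00848), at log2 fold changes of -4.04, -1.72 and -1.54. Of 8 markers of endothelium and blood, 0 rose and 4 fell (Sox7, Kdr, Etv2 and Tek), all endothelial or of their precursors. The globins Hba-x, Hbb-y and Hbb-bh1 did not pass (adjusted p = 0.109, 0.0656 and 0.0993 in limma), and with the block all 8 were lower. Sums of the 8 were 457 to 6007 against 13213 to 27765. Without pool 2 both lists held 0 calls and without pool 3 they held 1 each. Without GFP-negative array 2 each held 2, without GFP-positive array 3 each held 3, and without pool 1 each held 8. The part that endoderm or the removal of these other cells has in the keratin differences was not tested.

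Profiles over the 6 arrays were compared by the root mean square difference of log2 values after subtracting each gene's mean, as a description over 6 arrays that share the sort. For Krt7 the nearest genes were Col2a1, the collagen of cartilage and notochord sheath, Anxa5, a phospholipid-binding annexin, and Egflam, a matrix protein (0.124, 0.124 and 0.127). For Krt8 they were Ttll1, a tubulin polyglutamylase, Armc3 and Tspo, a mitochondrial membrane protein (0.101, 0.104 and 0.107). For Krt18 they were Ptgr1, a reductase, Foxc2, a forkhead factor of paraxial mesoderm, and Dkk1, a WNT antagonist (0.0743, 0.0894 and 0.0990). By this measure, which is not scaled to the size of a change, Krt19 had no gene so near. Emp1, an epithelial membrane protein, Selenop, a selenium carrier, and Scara3 were the nearest at 0.366, 0.420 and 0.438. Their Pearson correlations with Krt19 over the 6 arrays were 0.971, 0.963 and 0.958. The nearest genes of the other members had 0.986 to 0.994. Armc3 and Col2a1 lay below the array medians on GFP-negative arrays. Armc3 read 3.18, 2.48 and 0.52 there and 60.3, 48.5 and 40.8 on GFP-positive arrays. Col2a1 read 3.05, 15.8 and 5.18 on GFP-negative arrays. The offset understates the change of such dim genes, so their nearness to Krt8 and Krt7 does not mean an equal fold change in intensity.

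The members were not each other's nearest genes. From Krt8, Krt18 was at rank 321 and from Krt18, Krt8 was at rank 335, at a distance of 0.310. The nearest pair of members was Krt7 and Krt8 at 0.207, where Krt8 had rank 19 from Krt7. Krt18 and its nearest genes shared the low GFP-negative value of pool 1, as genes chosen by likeness over these same arrays would. Foxc2 read 115, 245 and 243 on GFP-negative and 396, 418 and 483 on GFP-positive arrays.

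**Figure D5:**
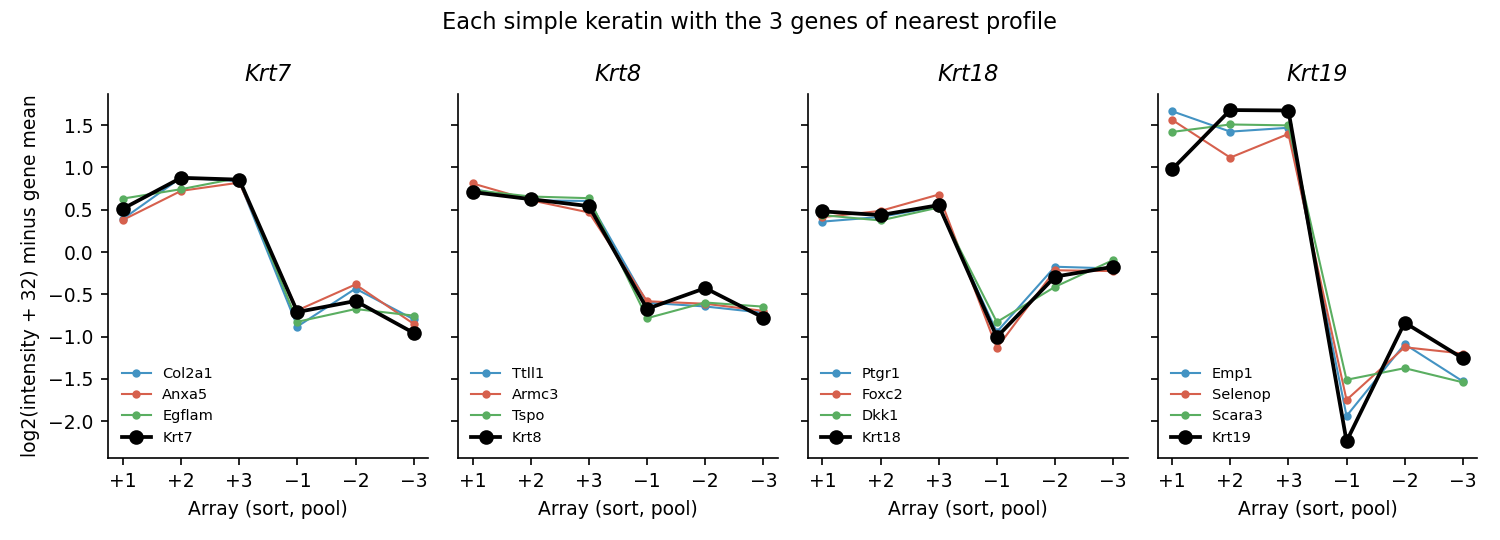
Log2(intensity + 32) minus the mean of each gene over GFP-positive (+) and GFP-negative (−) arrays of pools 1 to 3. Each simple keratin is in black with the 3 genes of nearest profile in color. For Krt18 and its neighbours the GFP-negative array of pool 1 is lowest, and Krt19 spans the widest range of the 4 keratins.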

How the data were processed

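The authors deposited 1-colour array intensities on a linear scale for 6 arrays. The submitters' processing notes name GCOS 1.4, and the background handling is not given in the sources used here. With 2% of values trimmed from each tail, every array's mean was 150. Detection calls were not used, so dim values cannot be told from background, and precision is limited by the 3 arrays of each group. All value columns were used (0 left out).

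Of 45101 probe sets, 64 were controls, 34945 had 1 symbol, 932 had several and 9160 were unnamed here. Values were taken to log2(value + 32). The filter required a value at or above the array's 40th percentile on at least 3 arrays. Among the probe sets of a gene that passed, the brightest on average was used, giving 12628 genes, and limma 3.58.1 was fitted to these (eBayes with a variance trend, group as the only term, Benjamini-Hochberg, threshold 0.05). Single probe sets were fitted over all 27821 that passed. Software was R 4.3.3 and Python 3.11.15, and the fit was tested on simulated data.

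The labels give same-numbered arrays the same pool of embryos, so the numbers pair the samples. Deviations from group means correlated at 0.542, 0.286 and 0.436 within pools and at -0.523 to 0.380 between pools, the values above 0 being those between pools 2 and 3. The fit without the block was the one planned. The members and lists were chosen with earlier results of these data known. Named genes are all members, the 3 genes with the smallest adjusted p of a list (or, in a list with no call, the 2 that differed most), every gene behind a count of at most 5, and the 3 nearest profiles. Except for node and notochord, the marker lists are named in part. The node and notochord markers, the neighbours, Cdx2, Ttr and Apoa1 were named outside this rule, after values were seen. So were Krt5, Krt14, Krt15 and the grainyhead genes. Alternatives were the offset, normalization, filter, variance model, pool as a block, probe set choice, and each array or pool left out with the same genes tested. Promoters are from RefSeq (GRCm38.p6), where 3 of the 4 members matched.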

Additional observations from a re-analysis of the deposited data

How the results depend on the processing

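All 4 keratins kept a positive log2 fold change under every alternative run. Beside the arrays left out, Krt7 lay between 1.14 and 1.78, Krt8 between 1.23 and 1.49 and Krt19 between 2.59 and 3.10, with every adjusted p under the threshold. Krt18 passed under median scaling of the arrays (1.21, adjusted p = 0.027) and with the pool as a replicate block (0.98, adjusted p = 0.0214; as a single probe set 0.98, adjusted p = 0.0248). Its adjusted p ranged from 0.0214 to 0.089 over these settings. Leaving out arrays or pools gave 1.34 to 1.63 for Krt7, 1.17 to 1.35 for Krt8, 0.72 to 1.14 for Krt18 and 2.49 to 3.19 for Krt19. Median scaling moved the median of all genes from 0.01 to 0.19, so 1.21 for Krt18 is to be read against 0.19, and the share of calls that were higher from 63.3% to 79.6%.

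Counts over all genes were 372 higher and 216 lower. They were 670 higher with median scaling, 233 and 101 without the filter, where more genes were tested, and 980 and 757 with the pool as a block. Leaving out arrays or pools gave 5 to 2511 higher and 0 to 2213 lower genes. The 0 is limma without pool 2, where 409 genes were lower at an unadjusted p under 0.05. The highest counts were without pool 1 and the cause was not tested. The block changed no other call of a member. The Krt7 to Krt8 difference was 0.52 at an offset of 16 and -0.086 at an offset of 64. The control 3′ over 5′ ratio (mean log2 difference between groups -0.32, exact permutation p = 0.5) was lower in GFP-positive cells in 3 of 3 pools (3.85 against 4.22, 0.81 against 0.93 and 0.85 against 1.30). Its unpaired difference ranged from -1.32 to 0.72 with an array left out, and was above 0 without GFP-positive array 2 (0.20) or 3 (0.18) or GFP-negative array 1 (0.72).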
